A study of Mus musculus with 13 samples.

Results

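The vacuolar proton pump (V-ATPase) acidifies lysosomes and synaptic vesicles, and 10 genes that encode its subunits were followed in the cortex of ageing mice with altered progranulin genes. They were chosen by gene symbol: Atp6v1a, Atp6v1b2, Atp6v1c1, Atp6v1d, Atp6v1e1 and Atp6v1h of the V1 sector, Atp6v0a1, Atp6v0c and Atp6v0d1 of the V0 sector, and the accessory subunit gene Atp6ap1. The choice was made with earlier results of these data known. The tables held 17562 genes in all. Of the 10 subunit genes, 9 were listed for Grn+/- against wild type and 10 in each of the other comparisons, Atp6v0c being the one that was missing from the first. Cortical RNA came from 13 male mice aged 18 months: 4 Grn-/-;GRNtg mice, in which both mouse Grn copies are lost and a human GRN transgene is present, 4 Grn+/- mice with 1 mouse Grn copy, and 5 wild-type (Grn+/+) mice. The series names the Grn-/-;GRNtg animals humanized and progranulin deficient, and the promoter of the transgene was not given in the sources used here. Grn encodes progranulin, a secreted protein that is delivered to lysosomes and cut there into granulins.

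The V-ATPase is a rotary motor. Its cytosolic V1 sector hydrolyses ATP and turns a central stalk, which rotates a ring of proteolipids in the membrane-bound V0 sector and carries protons into the organelle. In neurons the pump also builds the proton gradient that fills synaptic vesicles with transmitter, and lysosomal enzymes depend on the acid it produces. Several subunits exist as alternative forms from separate genes, some of them enriched in brain.

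The deposited files hold the authors' comparisons and no values per mouse, so differences below are log2 fold changes and standard errors (SE) taken from the authors' deposited tables. A gene is said to have risen or fallen where their Wald test, adjusted over all genes of the table by the Benjamini-Hochberg method, gave an adjusted p under 0.05. Levels per genotype were rebuilt from the authors' mean normalized count over all mice and their fold changes, and carry no spread of their own. Depth per mouse is therefore unknown here. Grn, the targeted gene, fell to 24.7% of wild type in Grn-/-;GRNtg and to 63.6% in Grn+/- mice per the authors' deposited tables, with log2 fold changes of -2.02 ± 0.081 and -0.65 ± 0.077. The deposited fold changes may be drawn towards 0 by a prior. In that case the percentages of wild type and the rebuilt levels given here understate the differences. Whether reads from the human transgene were counted for mouse Grn was not tested. All 8 cortical marker genes examined were listed, with mean normalized counts of 533 to 2922 per the authors' deposited tables, and 4 of 5 choroid plexus markers were not listed. In bulk tissue, fewer cells of a type and less RNA per cell cannot be told apart.

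Of the 10 genes, 9 had mean normalized counts of 2378 or more per the authors' deposited tables, and Atp6v0c one below 10. Together they made up 0.321% of all normalized counts assigned to genes. The highest mean normalized count was that of Atp6v1b2, at 12462 per the authors' deposited tables and rank 156 among 17562 genes. Per kilobase (kb) of annotated exon, a scale that allows in part for gene length, Atp6v0d1 and Atp6v1b2 stood at 2374 and 2349 mean normalized counts. Atp6ap1 (1921), Atp6v0a1 (1801), Atp6v1e1 (1495) and Atp6v1a (1292) followed on the per-kb scale. Atp6v1d (731) and Atp6v1c1 (730) lay lower per kb, and Atp6v1h, which encodes a regulatory subunit of V1, lowest of these with 244. The exonic length counts every annotated exon, so a gene with long, rarely used exons is set too low. It was 9.746 kb for Atp6v1h and 4.11 kb for Atp6v1e1, whose longest coding transcripts have 2049 and 1312 bases. For Atp6v0d1 the exonic length was 1.793 kb and the transcript 1629 bases. The order of these genes per kb therefore depends on the length used. Atp6v0c, which encodes the proteolipid c of the rotor ring, reached a mean normalized count of 9.99 per the authors' deposited tables, or 2.95 per kb, which is rank 14552 among 17562 genes by mean normalized count. Atp6v0b, the gene of the related proteolipid c″ in the same ring, reached 3475 mean normalized counts per the authors' deposited tables, or 1694 per kb.

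**Figure D1:**
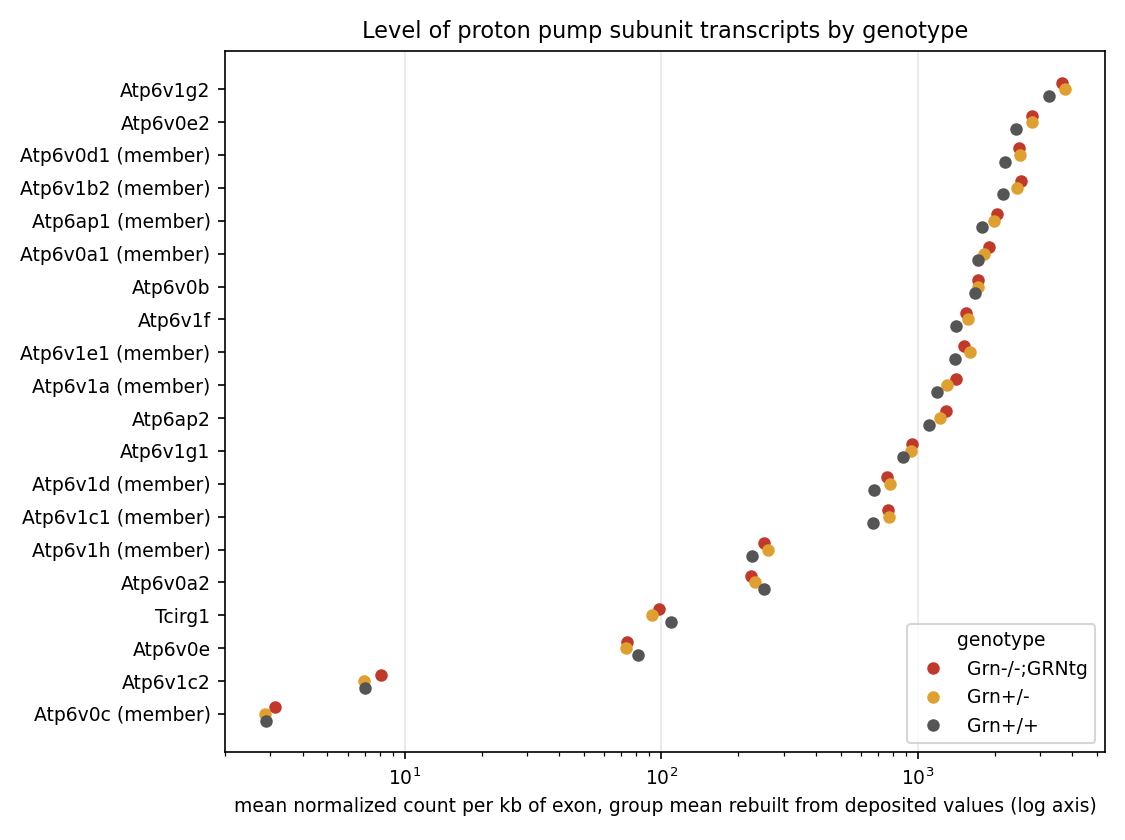
Mean normalized count per kb of exon (log axis) of 20 pump subunit genes, with 1 point per genotype: Grn-/-;GRNtg (red), Grn+/- (amber) and wild type (dark grey), each a group mean rebuilt from deposited values with no spread. Atp6v0c lies lowest, at 3.12 in Grn-/-;GRNtg, 2.86 in Grn+/- and 2.89 in wild type, and Atp6v1g2 highest, at 3640 in Grn-/-;GRNtg, 3741 in Grn+/- and 3254 in wild type.

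The low value of Atp6v0c (chromosome 17, 24163866 to 24169702, minus strand, GRCm38) concerns a gene with near-identical copies. GENCODE M21 annotates 2 processed pseudogenes of it: Atp6v0c-ps2 (chromosome 6, 37806086 to 37806550, plus strand) and Atp6v0c-ps1 (chromosome 7, 4412438 to 4412900, plus strand). Over 465 aligned positions Atp6v0c-ps2 differed from the Atp6v0c transcript at 1 position (99.8% identity), and Atp6v0c-ps1 at 13 (97.2%). The stretch around the single difference is shown because a read that covers that base differs between these genes. Reads from elsewhere in the aligned positions would match both. The printed stretch covers positions 258 to 317 of the 1183-base Atp6v0c transcript, counted from its 5′ end, and the capital marks the base that differs.
Atp6v0c: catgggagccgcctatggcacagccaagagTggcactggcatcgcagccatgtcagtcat
Atp6v0c-ps2: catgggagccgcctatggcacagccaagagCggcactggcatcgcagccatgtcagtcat
Of the 1134 windows of 50 bases in that transcript, 368 (32.5%) occurred unchanged in one of the annotated pseudogenes. That share counts the 465 bases that GENCODE annotates, while RefSeq lists Atp6v0c-ps2 over 1133 bases. In 7 of the other 9 genes no such window occurred in another gene, and in Atp6v1a and Atp6v1d 0.956% and 0.359% did. Neither pseudogene was listed in the tables. The counting method was not given in the sources used here, whether it dropped reads that match several places was not tested, and the level and fold changes of Atp6v0c are uncertain.

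In Grn+/- cortex against wild type, which asks what the loss of 1 mouse Grn copy does, 3 pump transcripts rose, all of the V1 stalks: Atp6v1e1, Atp6v1d and Atp6v1c1. They stood at 115%, 115% and 116% of wild type. The other 6 listed genes had positive fold changes without passing, so that 9 of 9 were positive, as were 52.4% of all 13482 genes. Of all genes, 2.29% were called higher and 6.80% in either direction; 0 of the 9 were called lower, where 4.51% of all genes were. The 9 genes had a median log2 fold change of 0.19, against 0.01 for all genes. At an unadjusted p under 0.05, 7 of the 9 were higher, where 9.09% of all genes were higher and 20.2% passed in either direction. Over all genes the Wald statistic (log2 fold change over SE) had a robust spread of 1.49, wider than its test assumes for genes that do not differ. With the statistic divided by that spread 0 of the 9 passed. Of all 13482 genes 0 were called higher under that setting, so it cannot set the pump genes apart. Atp6v1c1 did not pass with fold changes centred on the median, and neither Atp6v1c1 nor Atp6v1d with the trend over gene span (its length along the genome) removed.

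Atp6v1e1 encodes subunit E, part of the outer stalks that hold the ATP-splitting head still while the rotor turns. Its level was 6577 mean normalized counts in Grn+/- and 5724 in wild type, and the log2 fold change was 0.20 ± 0.058 with adjusted p = 0.016 per the authors' deposited table. Exons of this gene (chromosome 6, 120794305 to 120822793, minus strand, GRCm38) overlap exons of Slc25a18 on the other strand, and whether the counting used strand was not given in the sources used here. Slc25a18 was at -0.03 ± 0.061 in the same comparison, adjusted p = 0.83, per the authors' deposited table. Atp6v1d (chromosome 12, 78840725 to 78861638, minus strand) encodes subunit D, the axle of the rotor. It stood at 3576 in Grn+/- and 3097 in wild type, or 0.21 ± 0.068 on the log2 scale (adjusted p = 0.038) per the authors' deposited table. Subunit C, encoded by Atp6v1c1 (chromosome 15, 38661933 to 38692446, plus strand), joins the outer stalks to V0 and in yeast leaves the pump when V1 and V0 come apart. Its level was 4339 in Grn+/- and 3739 in wild type, which is 0.21 ± 0.072 on the log2 scale (adjusted p = 0.044) per the authors' deposited table.

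Genes of the catalytic head did not pass. Atp6v1a (chromosome 16, 44085402 to 44139705, minus strand), the gene of the ATP-hydrolysing subunit A, was at 0.14 ± 0.084 with adjusted p = 0.36 per the authors' deposited table for Grn+/- against wild type. Atp6v1b2 (chromosome 8, 69088646 to 69113711, plus strand), which encodes the form of subunit B that brain uses, was at 0.17 ± 0.085 with adjusted p = 0.22 per the authors' deposited table. Atp6v1h (chromosome 1, 5070018 to 5162529, plus strand) had 0.21 ± 0.084, as large a fold change as the called genes with a larger SE, and adjusted p = 0.12 per the authors' deposited table. Its exons overlap those of Rgs20 on the other strand, which was at 0.01 ± 0.102 per the authors' deposited table.

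Of the V0 genes, Atp6v0d1 (chromosome 8, 105524465 to 105566047, minus strand), whose product couples the central stalk to the ring, came closest to the threshold. Its log2 fold change in Grn+/- was 0.19 ± 0.068 with adjusted p = 0.060 per the authors' deposited table. Atp6v0a1 (chromosome 11, 101009452 to 101063719, plus strand), which encodes the neuronal form of subunit a, had 0.08 ± 0.067 (adjusted p = 0.55) per the authors' deposited table, the smallest of the 9. Atp6ap1 (chromosome X, 74297097 to 74304721, plus strand), the gene of an accessory glycoprotein that helps assemble V0, was at 0.15 ± 0.062 with adjusted p = 0.12 per the authors' deposited table. Differences between the fold changes of single subunits were not tested, since values per mouse are needed for that.

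**Figure D2:**
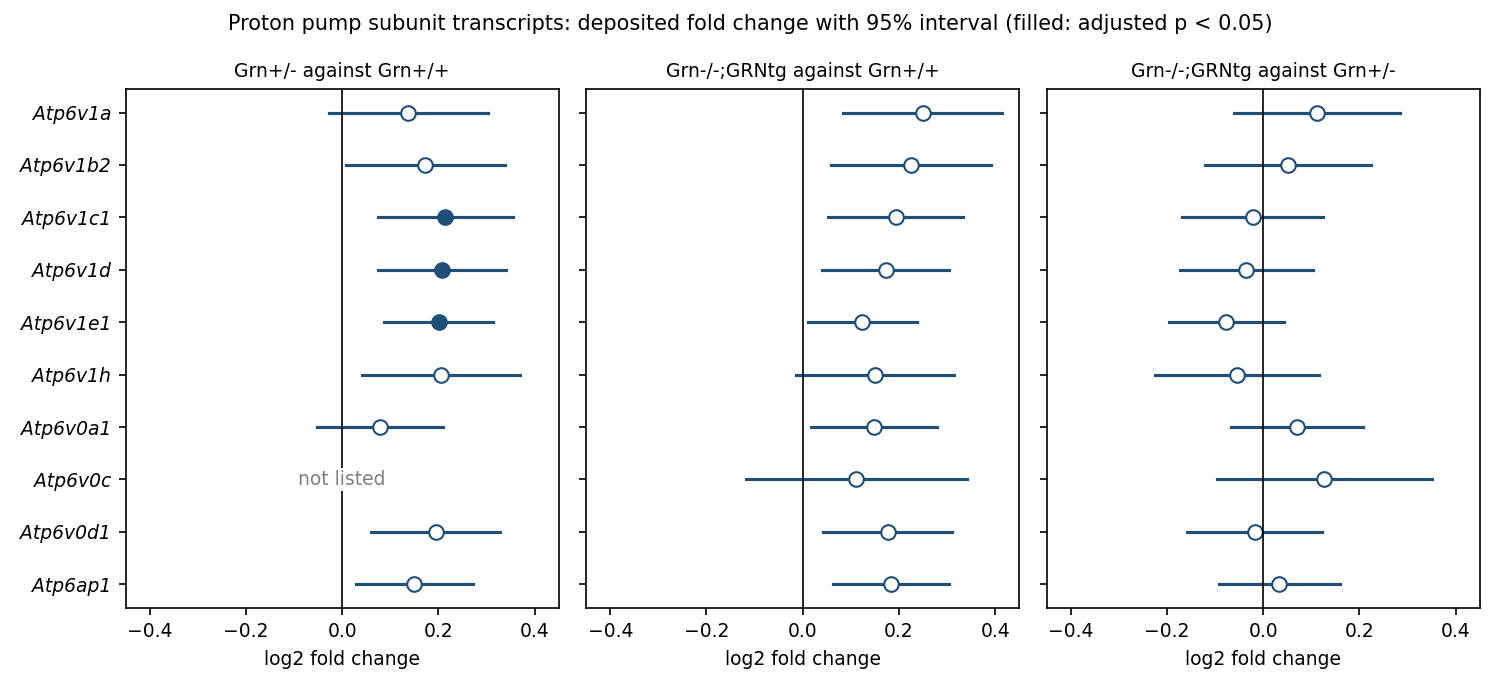
Log2 fold change of each of the 10 pump subunit genes (rows) in the 3 comparisons (panels), with its 95% interval as a line; filled circles passed at adjusted p under 0.05. In Grn+/- against wild type the 9 listed genes lie between 0.08 and 0.21 and 3 are filled, in Grn-/-;GRNtg against wild type all 10 lie between 0.11 and 0.25 with 0 filled, and between the mutant groups the points lie between -0.08 and 0.13.

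In Grn-/-;GRNtg cortex against wild type, which asks what exchanging mouse Grn for the human transgene does, all 10 pump genes had positive fold changes and 0 passed. Of all 14961 genes 51.3% were positive, 1.81% were called higher, 3.05% lower and 4.87% in either direction. At an unadjusted p under 0.05, 8 of the 10 were higher and 0 lower, while 10.1% of all genes were higher and 10.4% lower, 20.5% in all. The robust spread of the Wald statistic was 1.56 in this table. With genes of a mean normalized count under 100 left out before adjustment, Atp6ap1 and Atp6v1a passed, where 2.30% of the genes kept were called higher. The 10 genes had a median log2 fold change of 0.17, against 0.01 for all genes.

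Atp6v1a had the largest deposited fold change of the 10, at 0.25 ± 0.084 (95% interval 0.08 to 0.41) with adjusted p = 0.058 per the authors' deposited table. Its level was 8522 mean normalized counts in Grn-/-;GRNtg and 7169 in wild type. Atp6v1b2 was at 0.23 ± 0.085 with adjusted p = 0.090, and Atp6ap1 at 0.18 ± 0.062 with adjusted p = 0.054, per the authors' deposited table. The stalk genes that rose in Grn+/- did not pass here. Atp6v1c1 had 0.19 ± 0.072 (adjusted p = 0.086), Atp6v1d 0.17 ± 0.068 (adjusted p = 0.11) and Atp6v1e1 0.12 ± 0.058 (adjusted p = 0.19) per the authors' deposited table. The remaining genes lay between 0.11 and 0.18: Atp6v0d1 at 0.18 ± 0.068, Atp6v1h at 0.15 ± 0.084, Atp6v0a1 at 0.15 ± 0.067 and the uncertain Atp6v0c at 0.11 ± 0.117 per the authors' deposited table. With an estimated prior on fold changes removed, Atp6v0c stood at 0.40 and Atp6ap1 at 0.23, so the order of sizes depends in part on the prior.

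**Figure D3:**
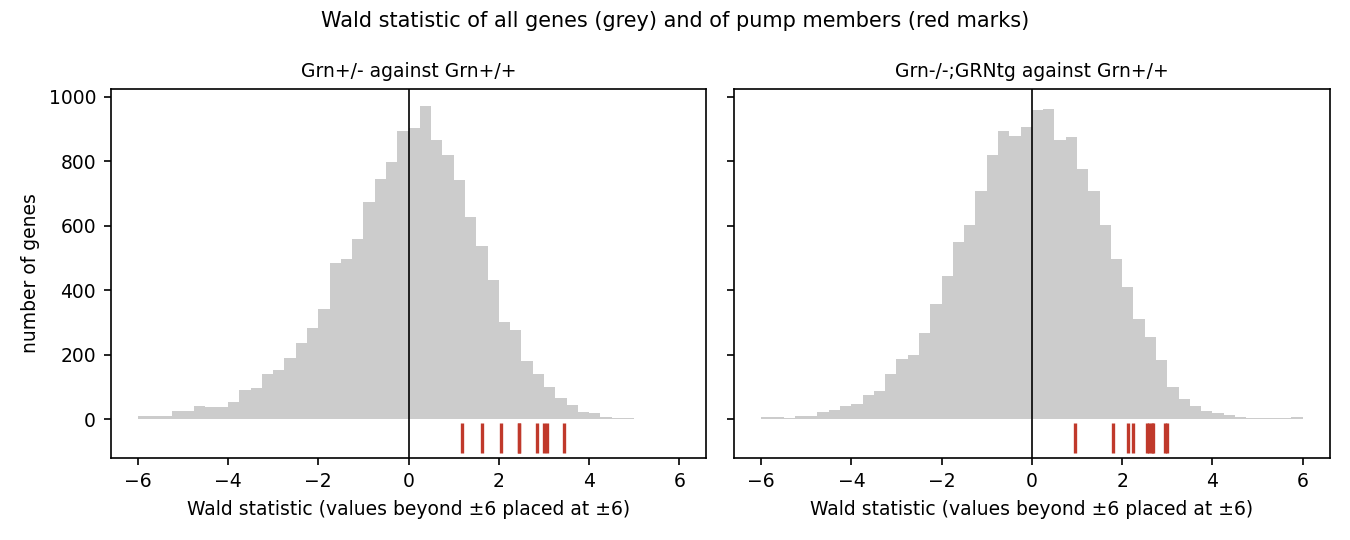
Number of genes (y axis) by Wald statistic, the log2 fold change over its SE (x axis), for all genes (grey) and the listed pump subunit genes (red marks), in Grn+/- against wild type (left) and Grn-/-;GRNtg against wild type (right). All red marks lie right of 0, with a median of 2.46 on the left and 2.57 on the right, where all genes have medians of 0.09 and 0.06.

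Both comparisons use the same 5 wild-type mice and are not independent of each other. The fold change of Grn-/-;GRNtg against Grn+/- sets those groups against each other, though the wild-type mice may enter its SE through a shared fit. In that comparison 5 of the 10 pump genes had positive and 5 negative fold changes, and 0 passed, where 50.8% of all 17562 genes were positive and 0.467% passed, 0.319% as higher and 0.148% as lower. At an unadjusted p under 0.05, 0 of the 10 were called, against 5.14% of all genes as higher and 3.85% as lower, 8.99% together. Their log2 fold changes had a median of 0.01, or -0.017 without Atp6v0c. Atp6v1a was at 0.11 ± 0.088 (95% interval -0.06 to 0.28) and Atp6v1e1 at -0.08 ± 0.061 (95% interval -0.20 to 0.04) per the authors' deposited table. For Atp6v1c1 the interval ran between -0.17 and 0.13, and for Atp6v1d between -0.17 and 0.10, on the log2 scale. Each of these intervals is wider than the gene's fold changes against wild type, so the levels in the mutant groups are not shown to be alike. The summed level of the 10 genes was 61361 mean normalized counts in Grn-/-;GRNtg, 60155 in Grn+/- and 53923 in wild type.

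The pump has 15 further subunit genes on a fixed list, and 11 of them were listed in at least 1 table. Of the 9 listed for Grn+/- against wild type 3 were higher and 2 lower at an unadjusted p under 0.05, where 9.09% of all genes were higher and 11.1% lower. After adjustment 1 was called higher, where 2.29% of all genes were. The gene that rose was Atp6v1f, which encodes subunit F of the rotor axle beside subunit D, at 0.16 ± 0.055 with adjusted p = 0.049 per the authors' deposited table, a call lost with centred fold changes (adjusted p = 0.065). In Grn-/-;GRNtg against wild type 0 of 10 passed, where 4.87% of all genes did. At an unadjusted p under 0.05 5 were higher and 1 lower (10.1% and 10.4% of all genes), and Atp6v1f was at 0.13 ± 0.055 (adjusted p = 0.15) per the authors' deposited table. In the mutant groups set against each other 0 of 11 passed, where 0.467% of all genes did. At an unadjusted p under 0.05 a single one was higher (5.14% of all genes were), Atp6v1c2 at 0.23 ± 0.090 per the authors' deposited table, a gene with a mean normalized count of 15.9. Atp6ap2, the gene of the other accessory subunit, was at 0.22 ± 0.080 (adjusted p = 0.080) in Grn-/-;GRNtg and 0.15 ± 0.080 (adjusted p = 0.30) in Grn+/- against wild type per the authors' deposited tables. Atp6v0b was at 0.04 ± 0.065 in both per the authors' deposited tables.

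Alternative forms of subunits a and e had fold changes of opposite sign, none of them past the threshold. The forms outside the followed genes were named after their values were seen. Subunit a anchors the outer stalks in the membrane. Its neuronal form Atp6v0a1 was positive in both mutant groups, as given above. Atp6v0a2, a form known from the Golgi, was at -0.17 ± 0.058 (adjusted p = 0.065) in Grn-/-;GRNtg and -0.11 ± 0.058 (adjusted p = 0.24) in Grn+/- against wild type per the authors' deposited tables. Tcirg1, the form a3 of osteoclasts and immune cells, was at -0.16 ± 0.092 (adjusted p = 0.31) in Grn-/-;GRNtg and -0.25 ± 0.092 (adjusted p = 0.080) in Grn+/- per the authors' deposited tables. The 95% intervals of Atp6v0a1 in Grn+/- (-0.05 to 0.21) and Tcirg1 in Grn-/-;GRNtg (-0.34 to 0.02) took in both signs. The other intervals of these forms against wild type did not.

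Subunit e showed the same split of sign. Atp6v0e2, the form enriched in brain, was at 0.21 ± 0.077 in both mutant groups, with adjusted p = 0.086 in Grn-/-;GRNtg and 0.076 in Grn+/-, per the authors' deposited tables. The widely expressed Atp6v0e was at -0.14 ± 0.109 in Grn-/-;GRNtg and -0.15 ± 0.109 in Grn+/- per the authors' deposited tables. Its 95% intervals, -0.35 to 0.08 in Grn-/-;GRNtg and -0.36 to 0.07 in Grn+/-, took in both signs. Per kb the wild-type level of Atp6v0e2 was 2417 and that of Atp6v0e 80.9. Of subunit G, the neuronal form Atp6v1g2 was at 0.16 ± 0.072 in Grn-/-;GRNtg and 0.20 ± 0.072 in Grn+/-, and Atp6v1g1 at 0.11 ± 0.062 in each mutant group, both genes positive, per the authors' deposited tables. Of subunit C, Atp6v1c1 and the sparse Atp6v1c2 were positive in Grn-/-;GRNtg, at 0.19 ± 0.072 and 0.21 ± 0.094, per the authors' deposited table. Whether the forms differ from each other was not tested. Exons of Atp6v1g2, Atp6v0a2, Atp6v0b and Atp6v1c2 overlap exons of another gene on the other strand, as those of Atp6v1e1 and Atp6v1h do.

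**Figure D4:**
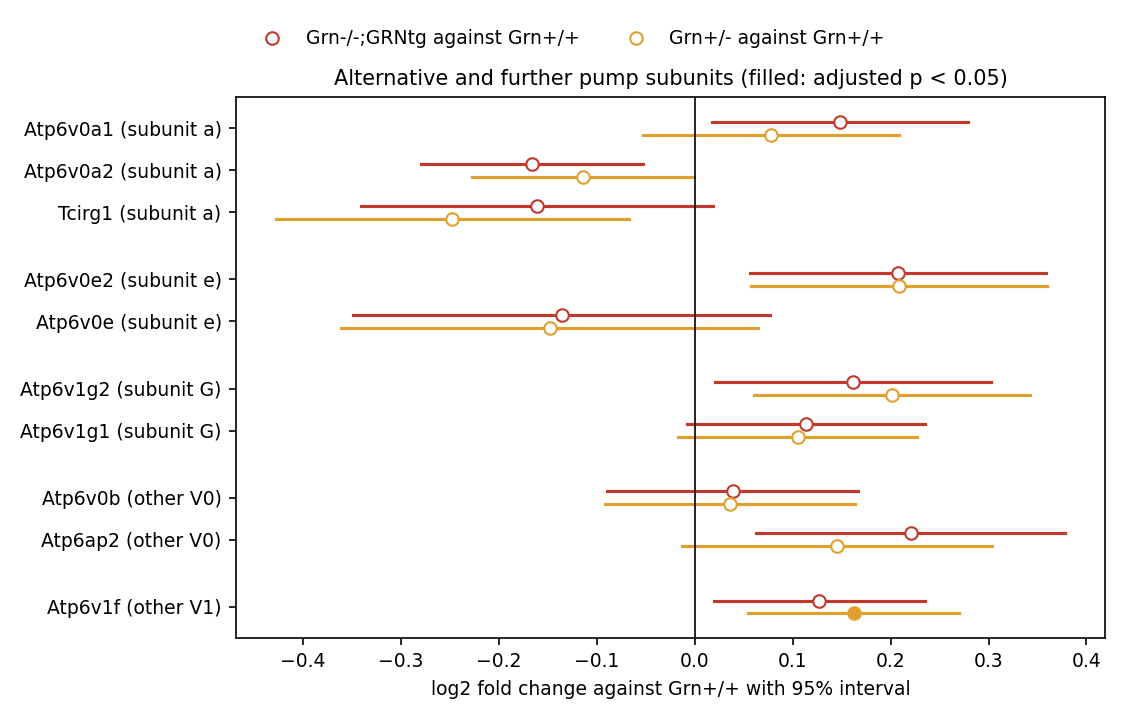
Log2 fold change against wild type with its 95% interval (x axis) for alternative forms of subunits a, e and G and for Atp6v0b, Atp6ap2 and Atp6v1f (rows), in Grn-/-;GRNtg (red, upper of each pair) and Grn+/- (amber, lower); the filled circle passed at adjusted p under 0.05. Atp6v0a2, Tcirg1 and Atp6v0e lie left of 0 in both groups, between -0.25 and -0.11, and Atp6v1f in Grn+/-, at 0.16, is the filled circle.

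Of 7 genes of factors that assemble the pump, 1 was called higher in Grn-/-;GRNtg (1.81% of all genes were), and 1 higher and 1 lower in Grn+/- (2.29% and 4.51% of all genes were). Ccdc115, which encodes an assembly factor of V0 in the endoplasmic reticulum, rose in both mutant groups, at 0.32 ± 0.089 (adjusted p = 0.017) in Grn-/-;GRNtg and 0.28 ± 0.089 (adjusted p = 0.029) in Grn+/- per the authors' deposited tables. Dmxl1, a subunit gene of the complex that rejoins V1 to V0, fell in Grn+/- with -0.29 ± 0.092 (adjusted p = 0.029) and was at -0.19 ± 0.092 (adjusted p = 0.23) in Grn-/-;GRNtg per the authors' deposited tables. Of 4 listed TLDc-domain genes, some of whose products bind V1, 0 passed in any comparison and the smallest unadjusted p was that of Oxr1, at 0.16 ± 0.108 in Grn-/-;GRNtg against wild type per the authors' deposited table.

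The lysosomal surface where the pump meets the nutrient sensor mTORC1 held 16 listed genes. In Grn-/-;GRNtg 2 rose and 1 fell, where 1.81% of all genes were called higher and 3.05% lower, and in Grn+/- 1 rose and 0 fell, where 2.29% were called higher and 4.51% lower. Rraga, which encodes a Rag GTPase, was at 0.24 ± 0.074 (adjusted p = 0.039) in Grn-/-;GRNtg and 0.25 ± 0.074 (adjusted p = 0.021) in Grn+/- per the authors' deposited tables. Rheb, the GTPase that switches mTORC1 on, was at 0.21 ± 0.052 (adjusted p = 0.0051) in Grn-/-;GRNtg and 0.13 ± 0.052 (adjusted p = 0.13) in Grn+/- per the authors' deposited tables. Slc38a9, an amino acid sensor that binds the Rag GTPases, was at -0.24 ± 0.078 (adjusted p = 0.042) in Grn-/-;GRNtg and -0.16 ± 0.078 (adjusted p = 0.21) in Grn+/- per the authors' deposited tables. Of 10 lysosomal ion channel and exchanger genes, which balance the charge of pumped protons or let ions out, 0 passed in any comparison. The smallest unadjusted p among them was that of Tmem175, at 0.24 ± 0.085 (adjusted p = 0.073) in Grn-/-;GRNtg against wild type per the authors' deposited table. With the trend over gene span removed, Rheb passed in Grn-/-;GRNtg, while Ccdc115 and Rraga in both groups, Slc38a9 in Grn-/-;GRNtg and Dmxl1 in Grn+/- did not, with adjusted p between 0.054 and 0.13.

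Promoters of pump genes are known targets of TFEB and its relatives, which bind elements around the letters CACGTG. RefSeq promoter windows on GRCm38.p6, 250 bases before to 50 after the start, were at hand for 7 of the 10 genes, and those of Atp6v1a and Atp6v0d1 held CACGTG. Among all 27025 genes with a window, 8.09% did. The longer palindrome TCACGTGA stood in the same pair and in 1.12% of all genes, and the same letters with a further G before and C after them in 0 of the 7 and in 0.370% of all genes. Each motif reads the same on both strands, and each longer one contains the shorter. The matches are printed with 12 bases on either side, in the direction of transcription, with CACGTG in capitals. They include the proteolipid gene Atp6v0b, which has 2, and Atp6v0e, the other pump genes with a match among 12 with a window.
Atp6v1a, chr16:44139373-44139402, minus strand: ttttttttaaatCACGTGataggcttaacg
Atp6v0d1, chr8:105566050-105566079, minus strand: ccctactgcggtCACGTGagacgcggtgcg
Atp6v0b, chr4:117887348-117887377, minus strand: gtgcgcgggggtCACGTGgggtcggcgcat
Atp6v0b, chr4:117887330-117887359, minus strand: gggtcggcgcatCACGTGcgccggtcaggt
Atp6v0e, chr17:26676387-26676416, plus strand: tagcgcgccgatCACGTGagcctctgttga
Counted from the start of transcription, the match begins at -131 in Atp6v1a, -3 in Atp6v0d1, -36 and -18 in Atp6v0b, and 4 in Atp6v0e. None of these genes passed in any comparison at the main threshold. The stalk genes Atp6v1d and Atp6v1e1 had windows with no match, while Atp6v1c1, Atp6v1b2 and Atp6v1h had no window. Whether matches go with fold changes was not tested. A match describes letters in a window and does not show binding. Of the TFEB family 3 genes were listed and 0 passed in any comparison, with Tfeb at -0.12 ± 0.118 and its relative Mitf at -0.18 ± 0.113 in Grn-/-;GRNtg against wild type per the authors' deposited tables.

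Synaptic vesicles carry the pump, and 10 genes of vesicle proteins were examined. All of them were positive in both mutant groups against the shared wild-type mice, as were 51.3% of all genes in Grn-/-;GRNtg and 52.4% in Grn+/-. Of the 10, 2 were called higher in Grn-/-;GRNtg and 1 in Grn+/-, where 1.81% and 2.29% of all genes were. Syp, which encodes synaptophysin, a partner of the pump on vesicles, was at 0.25 ± 0.075 (adjusted p = 0.029) in Grn-/-;GRNtg and 0.22 ± 0.075 (adjusted p = 0.046) in Grn+/- per the authors' deposited tables. Rab3a, the GTPase of vesicles near release, was at 0.21 ± 0.067 (adjusted p = 0.042) in Grn-/-;GRNtg and 0.18 ± 0.067 (adjusted p = 0.081) in Grn+/- per the authors' deposited tables. Syp in Grn+/- and Rab3a in Grn-/-;GRNtg did not pass with the span trend removed, with adjusted p = 0.061 and 0.10. Over the list the log2 fold changes had a median of 0.19 in Grn-/-;GRNtg and 0.15 in Grn+/-, and its summed level was 157530 in Grn-/-;GRNtg, 153931 in Grn+/- and 138585 in wild type. Of the transporters that load vesicles with the proton gradient, 0 of 7 passed in Grn-/-;GRNtg and 0 of 5 in Grn+/-, the smallest unadjusted p in Grn+/- being that of Slc32a1, the carrier of GABA, at 0.15 ± 0.060 per the authors' deposited table.

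Grn-/-;GRNtg and Grn+/- did not differ past the threshold for any gene in these lists of assembly factors, TLDc, mTORC1, ion channel, TFEB and vesicle genes. At an unadjusted p under 0.05 a single one was called, where 8.99% of all genes were. It was Slc18a2, which encodes the vesicular carrier of monoamines, at -0.21 ± 0.072 with a mean normalized count of 8.88 per the authors' deposited table. The smallest unadjusted p in each of the other lists belonged to Rogdi of the assembly factors (0.13 ± 0.097), Tbc1d24 of the TLDc genes (0.08 ± 0.074), Tfeb of its family (-0.12 ± 0.121), Rragd of the mTORC1 genes (-0.17 ± 0.087), Tmem175 of the ion channels (0.12 ± 0.088) and Syn2 of the vesicle proteins (0.24 ± 0.126) per the authors' deposited table.

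Among cell type markers and RNA classes, some genes passed in the comparisons with wild type and several lists held none that did. Of all genes, 51.3% were positive, 1.81% called higher and 3.05% called lower in Grn-/-;GRNtg. In Grn+/- the shares were 52.4% positive, 2.29% called higher and 4.51% called lower. Of 10 general neuronal genes, 5 were positive and 1 was called lower in Grn-/-;GRNtg (Camk2a, -0.20 ± 0.055), and 8 were positive in Grn+/- with Snap25 higher at 0.29 ± 0.097 and Map2 lower at -0.25 ± 0.067, per the authors' deposited tables. Their summed level was 178738 in Grn-/-;GRNtg, 201437 in Grn+/- and 188919 in wild type. Such sums, here and above, are weighted towards the most abundant genes of a list. Camk2a stood at 72971 in Grn-/-;GRNtg, 82447 in Grn+/- and 83555 in wild type. Snap25 stood at 43626, 53084 and 43362.5 in the same order. Mbp weighs most in the oligodendrocyte sum and Slc1a2 in the astrocyte sum. Oligodendrocyte markers were negative in 6 of 6 genes in each mutant group with 0 called, and summed to 76901 in Grn-/-;GRNtg, 80220 in Grn+/- and 89953 in wild type. Astrocyte markers summed to 70552 in Grn-/-;GRNtg, 69325 in Grn+/- and 77326 in wild type, with Slc1a2 (-0.22 ± 0.073) and Gja1 (-0.26 ± 0.085) lower in Grn+/- per the authors' deposited table. Endothelial markers summed to 3933 in Grn-/-;GRNtg, 4345 in Grn+/- and 4867 in wild type, with Flt1 (-0.36), Kdr (-0.40) and Slco1c1 (-0.36) of 5 lower in Grn-/-;GRNtg per the authors' deposited table. Microglial markers summed to 5967 in Grn-/-;GRNtg, 5769 in Grn+/- and 6146 in wild type, with 0 of 7 called in either group. Cortical layer markers summed to 11930 in Grn-/-;GRNtg, 11920 in Grn+/- and 12184 in wild type, with Rorb higher in Grn+/- at 0.37 ± 0.127 per the authors' deposited table. The 6 striatal markers summed to 5036 in Grn-/-;GRNtg, 4468 in Grn+/- and 4549 in wild type with 0 called. Astrocyte markers were negative in 5 of 6 genes and microglial markers in 6 of 7 in each mutant group. Of endothelial markers 5 of 5 were negative in Grn-/-;GRNtg and 4 of 5 in Grn+/-. Striatal markers were positive in 6 of 6 genes in Grn-/-;GRNtg and 1 of 6 in Grn+/-. Cortical ones were positive in 3 of 8 and 2 of 8 in the same order. Between the mutant groups 6 of 6 striatal markers were positive, where 50.8% of all genes were. Nuclear-retained RNAs were negative in 8 of 8 genes in both groups, with Malat1 lower in Grn-/-;GRNtg (-0.62 ± 0.109) and Malat1 (-0.43), Rian (-0.23), Mirg (-0.45) and Kcnq1ot1 (-0.42) lower in Grn+/- per the authors' deposited tables. Reads assigned to no gene were at -0.18 ± 0.052 in Grn-/-;GRNtg and -0.22 ± 0.052 in Grn+/- per the authors' deposited tables. What part these differences in cell type markers and RNA classes have in the values of the pump genes was not tested.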

How the data were processed

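Total RNA of mouse cortex was made into RNA-seq libraries that keep strand, per the labels' protocols. Build mm10, R 4.1.2 and DESeq2 1.34.0 are named without roles in the submitters' processing notes. How reads were aligned and counted, and with which strand setting, is not stated in those sources. Per the file headers, the deposited tables give a mean normalized count, a signal that the authors averaged over their libraries. They also give the authors' log2 fold change, its SE and a Wald statistic, both treated as scores made by the authors. The p-value and adjusted p-value are the authors' as well. Division of the deposited columns returned the statistic, and Benjamini-Hochberg adjustment over each table's rows returned the adjusted values. The 3 tables' fold changes add up, as from a single fit. The largest SE was 0.138 in each table, as a prior on fold changes would give, so fold changes may be drawn towards 0. Rows that name no gene were left out; reads assigned to no gene made up 17.0% and ambiguous ones 0.606% of normalized counts.

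The members and lists were chosen with earlier results of these data known. Named genes are the 10 members, Grn, list genes with adjusted p under 0.05 in some comparison and the gene with the smallest p of a list; Slc25a18, Rgs20, other forms of pump subunits and Tfeb were named after their values were seen. The 18 lists held 135 entries, of which 125 matched. The files give no values per mouse, so p-values measure the spread between mice as the authors' model gives it, and no list was tested. Intervals are 95% normal intervals from the SE. Group levels assume that the mean covers 5, 4 and 4 mice. Positions and exonic lengths are from GENCODE M21 on GRCm38, which mm10 names. Matches over 50 bases used its transcripts, and alignments edlib 1.3.9.post1. Alternatives are given below, and the functions behind them were tested on simulated data. Python 3.11.15, numpy 2.4.6, pandas 2.3.3, scipy 1.17.1 and matplotlib 3.10.9 were used.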

Additional observations from a re-analysis of the deposited data

How the results depend on the processing

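The count of 3 pump genes called higher in Grn+/- was 0 with the statistic divided by its robust spread (1.49 in that table), where 0 of all genes were called higher and Grn was the one named gene that passed in any comparison, and 7 with the prior removed, which raises every statistic and called 16.4% of all genes higher. Centring on the median and removing the trend with gene span each left 2, without Atp6v1c1 in the first and without Atp6v1c1 and Atp6v1d in the second, where Atp6v1h passed. Of all genes 1.87% and 1.86% were called higher under these settings. In Grn-/-;GRNtg against wild type the count of 0 became 4 at adjusted p under 0.1, where 4.08% of all genes were called higher. It became 2 (Atp6v1a and Atp6ap1) with genes of a mean normalized count under 100 left out, where 2.30% were. With the span trend removed it was 1 (Atp6v1a), where 1.74% were called higher, and with the prior removed 8, where 18.1% were. The median between the mutant groups changed sign, to -0.017, when Atp6v0c dropped out under adjustment over the genes in all tables, under the minimum count, or by itself (an alternative chosen after seeing the data). Counts called lower stayed at 0 in all 3 comparisons under every setting tried, and the medians against wild type kept their sign. Over all genes, where 917, 728 and 82 were called in Grn+/- and Grn-/-;GRNtg against wild type and between the mutant groups, the robust spread left 3, 5 and 29, removing the prior gave 4727, 5636 and 3789, and the limit of 0.1 gave 1423, 1396 and 159; between the mutant groups adjustment over shared genes left 43 and the minimum count 36. The causes were not tested, except that removing the prior raises statistics by construction. No paired analysis was possible because the files hold no values per mouse, and leaving out single mice was not run for the same reason. Depth per mouse is unknown, so the SE is the sole measure of precision.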
